A study of Mus musculus with 10 samples.

Results

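Immune checkpoint receptors and the ligands that engage them were followed in 10 tumours of HEPA1-6 cells, an established mouse hepatoma line. The set held 10 genes of the 55020 lines of the deposited expression table, taken by gene symbol. It comprised 5 receptors (Pdcd1, Ctla4, Lag3, Havcr2 and Tigit) and 5 ligands (Cd274, Pdcd1lg2, Cd80, Cd86 and Pvr). Only Ctla4 had a second line, on an unplaced scaffold and listed at 0 in every tumour, so the line with the higher mean was used. Every tumour grew under the skin of C57/BL6 mice for 4 weeks. Tumours of GSK343-treated mice (n = 5) were compared with those of vehicle-treated mice (n = 5). GSK343 inhibits EZH2, the methyltransferase that places a repressive mark on histone H3. The series' design text calls the tumours of a condition biological replicates, which were numbered 1 to 5 with GSK343 and 1, 2, 3, 5 and 6 with vehicle. GSK343 tumours carry titles that start with G; the remaining titles start with C and were assigned to vehicle by elimination. The protocols also name a control antibody and one written as Anti-AsilaoGM1, an antibody used to deplete natural killer cells. Which tumour received which antibody is not stated, so antibody and treatment cannot be told apart in these values. The sources used here do not give the age and sex of the mice or the dose of GSK343.

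Checkpoint receptors are inhibitory surface proteins that T cells acquire or raise after activation, and several stay high on T cells that meet antigen for a long time. Pdcd1 encodes PD-1, which binds PD-L1 (Cd274) and PD-L2 (Pdcd1lg2) and dampens signalling from the T cell receptor. Ctla4 competes with the costimulatory receptor Cd28 for Cd80 and Cd86 on antigen-presenting cells. Lag3 binds MHC class II, Havcr2 encodes TIM-3, and Tigit binds Pvr (CD155), an adhesion protein that many tumour cells carry. Interferon-gamma induces Cd274 in tumour cells and in leukocytes.

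Cd274 and Pdcd1lg2 lie next to each other on chromosome 19, on the same strand and 22823 bases apart. Their promoters are shown because the genes are neighbours and both encode ligands of PD-1, while their log2 levels over the 10 tumours had an r of 0.62. The 250 bases before the start site are given 5′ to 3′ on the plus strand, from RefSeq on GRCm38.p6, with each CG dinucleotide in capitals. The Cd274 window is chr19:29367188-29367437 and the Pdcd1lg2 window is chr19:29410669-29410918.
Cd274: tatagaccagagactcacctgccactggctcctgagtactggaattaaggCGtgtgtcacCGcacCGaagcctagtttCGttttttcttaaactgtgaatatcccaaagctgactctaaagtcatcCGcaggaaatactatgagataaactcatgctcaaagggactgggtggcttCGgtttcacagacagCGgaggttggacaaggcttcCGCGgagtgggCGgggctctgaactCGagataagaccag
Pdcd1lg2: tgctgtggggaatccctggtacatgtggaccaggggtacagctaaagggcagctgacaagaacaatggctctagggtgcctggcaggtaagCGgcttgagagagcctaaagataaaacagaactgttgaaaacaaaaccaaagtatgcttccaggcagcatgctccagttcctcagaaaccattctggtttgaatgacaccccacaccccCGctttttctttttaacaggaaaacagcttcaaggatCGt

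The Cd274 window held 11 CG dinucleotides and the Pdcd1lg2 window held 3. Over 32851 windows of the same length the median was 6.0, and 64.4% of windows had fewer than Cd274 and 29.0% fewer than Pdcd1lg2. RefSeq windows were matched for 7 of the 10 genes. Both strands were searched for the core of the interferon-stimulated response element. It was found in none of the 7 windows, while 2.98% of all windows held it. These counts describe the letters of the windows alone.

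Expression is given as FPKM, a level corrected for the length of the transcript and for the size of the library, so levels can be set side by side between genes. The sums over all lines were 574547 to 623397 FPKM per tumour. Lines that reached 1 FPKM numbered 14355 to 14714 in GSK343 tumours and 13985 to 14348 in vehicle tumours, with no overlap. Read counts were not used here, so the depth is known only by inference, from steps in the values of single-exon genes. If 1 step is 1 read, they correspond to 46.6 to 50.9 M reads (M, mega) in GSK343 tumours and 38.5 to 48.4 M reads in vehicle tumours. The hepatoma genes Afp and Alb averaged 1775 ± 251.6 and 2810 ± 278 FPKM in GSK343 tumours, against 2085 ± 197 and 3129 ± 318 FPKM in vehicle tumours (SD, n = 5 each). All 6 hepatoma markers had a lower mean in GSK343 tumours and none passed after adjustment, but 3 were lower at an unadjusted limma p under 0.05, where 6.86% of all lines were: Apoa1 (log2 fold change -0.98), Ttr (-0.87) and Hnf4a (-0.33). The muscle markers Acta1, Ckm, Myl1 and Tnnt3 summed to 38.5 to 276 FPKM in GSK343 tumours and 0.811 to 69.6 FPKM in vehicle tumours. Their log2 fold changes were 1.503 to 2.02, each higher at an unadjusted limma p under 0.05, where 10.7% of all lines were. The 4 keratinocyte markers examined had negative log2 fold changes (median -1.16), none at an unadjusted limma p under 0.05. They summed to 1.73 to 21.9 FPKM in GSK343 tumours and 2.79 to 115 FPKM in vehicle tumours. The part of the muscle and keratinocyte markers in the differences of the checkpoint genes was not tested. GSK343 replicates 3 and 5 stood apart by their share of mitochondrial transcripts, 7.17% and 7.11% of FPKM, against 2.63% to 5.05% in the other 8 tumours. In bulk tissue, fewer cells of a type and less RNA per cell cannot be told apart. Genes were tested on log2(FPKM + 1) with limma over 14496 lines, those whose mean reached 1 FPKM, and called at a Benjamini-Hochberg adjusted p under 0.05.

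None of the 10 genes passed the test between GSK343 and vehicle tumours, where 0.0828% of all lines did. All 10 genes had a mean above the filter of 1 FPKM, and their adjusted p-values ran between 0.189 and 0.386. The mean level was higher in GSK343 tumours for 9 of the 10 genes, all except Pvr, while 47.6% of all lines had a log2 fold change above 0. The median log2 fold change was 0.78 over the 5 receptors and 0.59 over the 5 ligands, beside -0.01 over all lines tested. At an unadjusted p under 0.05, limma gave 5 genes, each higher in GSK343 tumours: Cd86, Cd80, Havcr2, Ctla4 and Cd274. Of all lines, 10.7% were higher at that level. The groups overlapped for every one of the 10 genes, while 1.42% of lines were higher in GSK343 tumours with no overlap and 1.2% were lower.

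**Figure D1:**
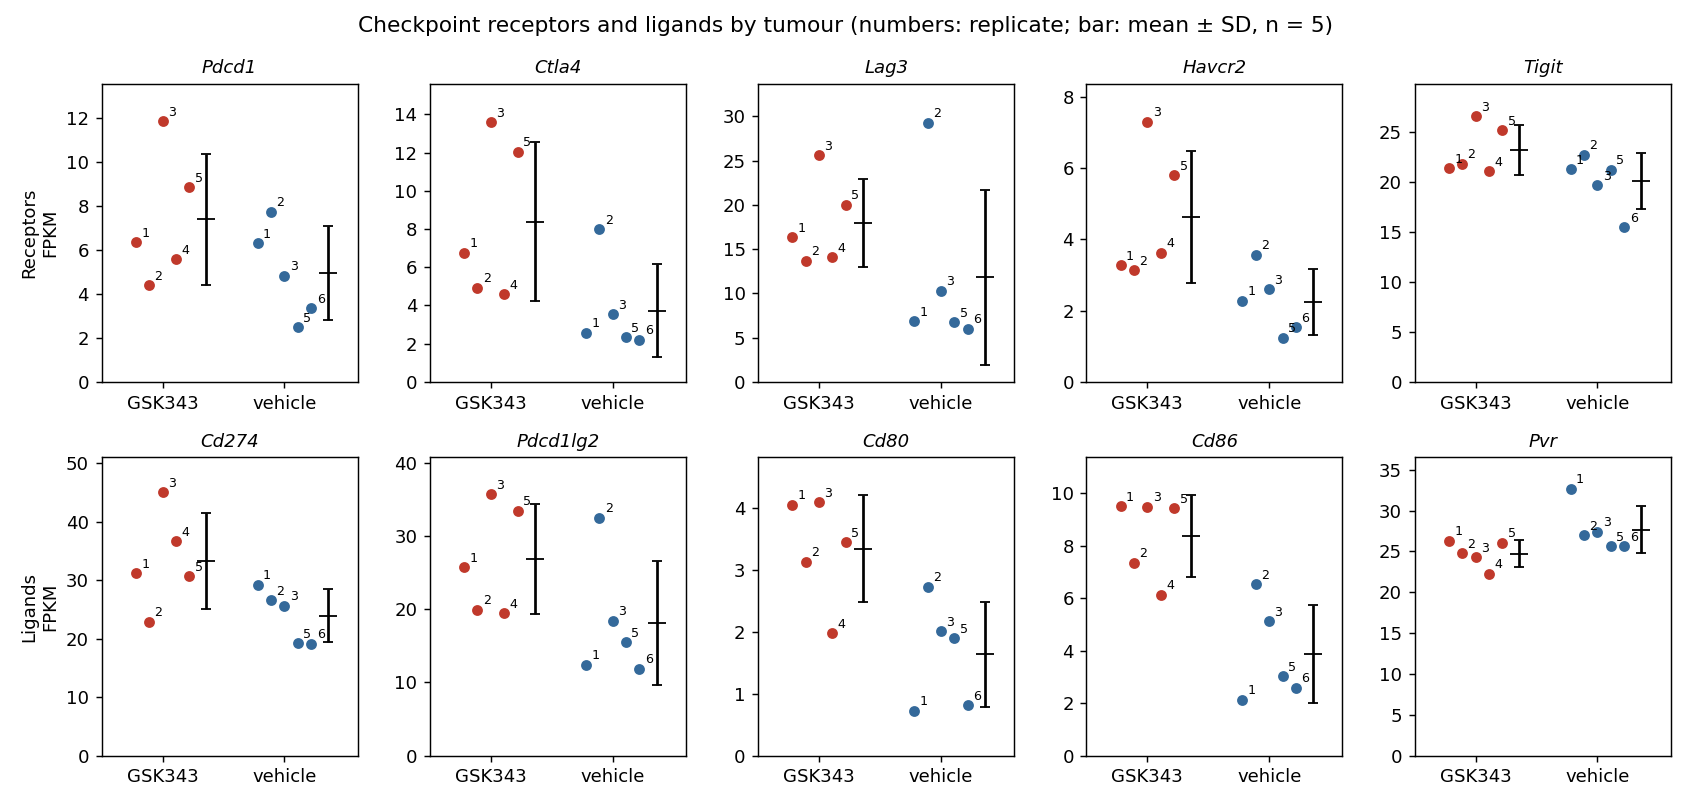
FPKM (vertical axis) of the 5 receptors (top) and 5 ligands (bottom) in GSK343 (red) and vehicle (blue) tumours, with the replicate number beside each point and the mean ± SD of 5 tumours as a bar. GSK343 replicates 3 and 5 and vehicle replicate 2 lie at the top of their groups for Ctla4, Lag3 and Havcr2, and the groups overlap in all 10 panels.

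Among the receptors, Pdcd1 (chr1:94038305-94052553, minus strand) had 6.36, 4.41, 11.9, 5.58 and 8.87 FPKM in GSK343 replicates 1 to 5, against 6.33, 7.76, 4.84, 2.50 and 3.36 FPKM in vehicle replicates 1, 2, 3, 5 and 6. Only GSK343 replicates 3 and 5 exceeded every vehicle tumour. The means were 7.42 ± 2.98 FPKM with GSK343 and 4.96 ± 2.14 FPKM with vehicle, a log2 fold change of 0.51 (SE 0.290, limma adjusted p = 0.386). Ctla4 (chr1:60887000-60915832, plus strand) had 6.75, 4.93, 13.6, 4.60 and 12.1 FPKM with GSK343, against 2.58, 8.001, 3.53, 2.33 and 2.22 FPKM with vehicle. All 5 GSK343 tumours lay above 4 of the 5 vehicle tumours, and vehicle replicate 2 lay above 3 of the GSK343 tumours. The means were 8.38 ± 4.16 FPKM with GSK343 and 3.73 ± 2.44 FPKM with vehicle, with a log2 fold change of 0.99 (SE 0.350, limma adjusted p = 0.213). Its locus contains the pseudogene Rpl18-ps1, which shares no exon bases with it.

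Lag3 (chr6:124904361-124911705, minus strand) had 16.4, 13.7, 25.6, 14.1 and 20.01 FPKM in the GSK343 tumours, against 6.86, 29.3, 10.3, 6.73 and 6.02 FPKM in the vehicle tumours. Its highest value of all 10 tumours was in vehicle replicate 2, and the other vehicle tumours lay below every GSK343 tumour. The log2 fold change was 0.78 (SE 0.371, limma adjusted p = 0.306), on means of 18.0 ± 4.98 FPKM with GSK343 and 11.8 ± 9.89 FPKM with vehicle. Without vehicle replicate 2, the vehicle mean of Lag3 was 7.47 ± 1.91 FPKM (n = 4) and the gene passed the test, as Cd86 did, with a log2 fold change of 1.15 for Lag3 and 1.18 for Cd86. Their limma adjusted p was 0.0474 each without that tumour, where 0.662% of all lines passed, and the adjusted p over all alternatives run was 0.0474 to 0.9999 for either gene.

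Havcr2 (chr11:46454935-46481255, plus strand) had 3.28, 3.13, 7.30, 3.62 and 5.80 FPKM with GSK343, against 2.28, 3.56, 2.60, 1.24 and 1.53 FPKM with vehicle. Again 4 vehicle tumours lay below every GSK343 tumour and vehicle replicate 2 did not. Havcr2 averaged 4.63 ± 1.84 FPKM with GSK343 and 2.24 ± 0.920 FPKM with vehicle, and its log2 fold change was 0.78 (SE 0.244, limma adjusted p = 0.199). Tigit (chr16:43648867-43664146, minus strand) was the most even receptor: it had 21.4, 21.8, 26.6, 21.1 and 25.2 FPKM with GSK343, against 21.3, 22.8, 19.7, 21.2 and 15.5 FPKM with vehicle. Its means were 23.2 ± 2.51 FPKM with GSK343 and 20.1 ± 2.79 FPKM with vehicle, with a log2 fold change of 0.20 (SE 0.109, limma adjusted p = 0.356). Between the lowest and highest of the 10 tumours Tigit differed 1.72-fold, while the other receptors differed 4.75-fold (Pdcd1) to 6.12-fold (Ctla4).

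Among the ligands, those of PD-1 had the highest mean levels in GSK343 tumours. Cd274 (chr19:29367455-29388095, plus strand) had 31.2, 22.9, 45.0, 36.6 and 30.6 FPKM with GSK343, against 29.2, 26.6, 25.6, 19.2 and 19.1 FPKM with vehicle. GSK343 replicate 2 fell among the vehicle tumours and the other 4 exceeded all of them. Cd274 averaged 33.3 ± 8.21 FPKM with GSK343 and 23.9 ± 4.55 FPKM with vehicle, a log2 fold change of 0.44 (SE 0.178, limma adjusted p = 0.243). An antisense gene shares 511 exon bases with Cd274, and reads of the pair cannot be told apart where counting ignores strand; which strand setting was used is not stated. Pdcd1lg2 (chr19:29410919-29471157, plus strand) had 25.7, 19.9, 35.7, 19.5 and 33.4 FPKM with GSK343, against 12.4, 32.5, 18.4, 15.5 and 11.9 FPKM with vehicle. As for Lag3, vehicle replicate 2 lay apart from the other 4 vehicle tumours, all of which lay below every GSK343 tumour. Its means were 26.9 ± 7.51 FPKM with GSK343 and 18.1 ± 8.46 FPKM with vehicle, with a log2 fold change of 0.59 (SE 0.270, limma adjusted p = 0.288).

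Cd80 (chr16:38455561-38496335, plus strand) had 4.05, 3.13, 4.10, 1.98 and 3.44 FPKM in the GSK343 tumours, against 0.727, 2.73, 2.01, 1.89 and 0.819 FPKM in the vehicle tumours. By mean it was the lowest of the 10 genes in both groups, although Havcr2 lay below it in GSK343 replicates 1 and 2 and vehicle replicate 5. Only GSK343 replicate 4 lay within the vehicle range of Cd80. Its means were 3.34 ± 0.864 FPKM with GSK343 and 1.64 ± 0.850 FPKM with vehicle, and the log2 fold change was 0.76 (SE 0.234, limma adjusted p = 0.196). Cd86 (chr16:36603869-36666081, minus strand), the partner of Cd80 in costimulation, had 9.50, 7.36, 9.49, 6.13 and 9.43 FPKM with GSK343, against 2.12, 6.54, 5.12, 3.03 and 2.59 FPKM with vehicle. GSK343 replicate 4 lay below vehicle replicate 2, and that pair was the whole of the overlap. The log2 fold change of Cd86 was 1.01 (SE 0.238, limma adjusted p = 0.189), close to that of Ctla4, on means of 8.38 ± 1.55 FPKM with GSK343 and 3.88 ± 1.87 FPKM with vehicle.

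Pvr (chr7:19903578-19921160, minus strand) had 26.3, 24.8, 24.3, 22.3 and 26.0 FPKM with GSK343, against 32.7, 27.0, 27.4, 25.7 and 25.7 FPKM with vehicle. No GSK343 tumour lay above the vehicle range and 3 lay below it. The means were 24.7 ± 1.61 FPKM with GSK343 and 27.7 ± 2.90 FPKM with vehicle, with a log2 fold change of -0.15 (SE 0.0803, limma adjusted p = 0.348). Its 95% interval of -0.33 to 0.02 was the narrowest of the 10, and its values differed 1.47-fold over the 10 tumours.

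By mean FPKM, the order in GSK343 tumours was Cd274, Pdcd1lg2, Pvr, Tigit, Lag3, Ctla4, Cd86, Pdcd1, Havcr2 and Cd80. Neighbours in that order differed by less than the larger of their SDs, except Tigit from Lag3 and Lag3 from Ctla4. In vehicle tumours Pvr came first, followed by Cd274, Tigit, Pdcd1lg2, Lag3, Pdcd1, Cd86, Ctla4, Havcr2 and Cd80, and no neighbours differed by more than the larger SD. Summed over the 5 receptors, the level was 48.0 to 85.0 FPKM in GSK343 tumours and 28.6 to 71.4 FPKM in vehicle tumours. The 5 ligands summed to 78.1 to 119 FPKM in GSK343 tumours and to 60.1 to 95.3 FPKM in vehicle tumours.

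Whether a ligand and its receptor differed unequally was asked within each tumour, as the ligand's log2(FPKM + 1) minus the receptor's. Cd274 minus Pdcd1 averaged 2.06 ± 0.32 with GSK343 and 2.12 ± 0.32 with vehicle (exact two-sided permutation p = 0.778), and Pdcd1lg2 minus Pdcd1 averaged 1.75 ± 0.18 with GSK343 and 1.67 ± 0.51 with vehicle (exact p = 0.762). For the ligands of Ctla4, Cd80 minus Ctla4 averaged -1.02 ± 0.49 with GSK343 and -0.79 ± 0.41 with vehicle (exact p = 0.429), a difference of -0.24, and Cd86 minus Ctla4 averaged 0.10 ± 0.46 with GSK343 and 0.08 ± 0.30 with vehicle (exact p = 0.937). Pvr minus Tigit was 0.28, 0.18, -0.13, 0.08 and 0.04 in GSK343 tumours, against 0.60, 0.23, 0.46, 0.26 and 0.69 in vehicle tumours. GSK343 replicate 1 lay within the vehicle range and the other 4 lay below it. That difference between the groups was -0.36 (exact permutation p = 0.0238, adjusted over the 5 pairs 0.119), so no pair passed, with all 5 pairs overlapping. The smallest p that the assignments of 5 of 10 tumours allow is 0.00794.

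**Figure D2:**
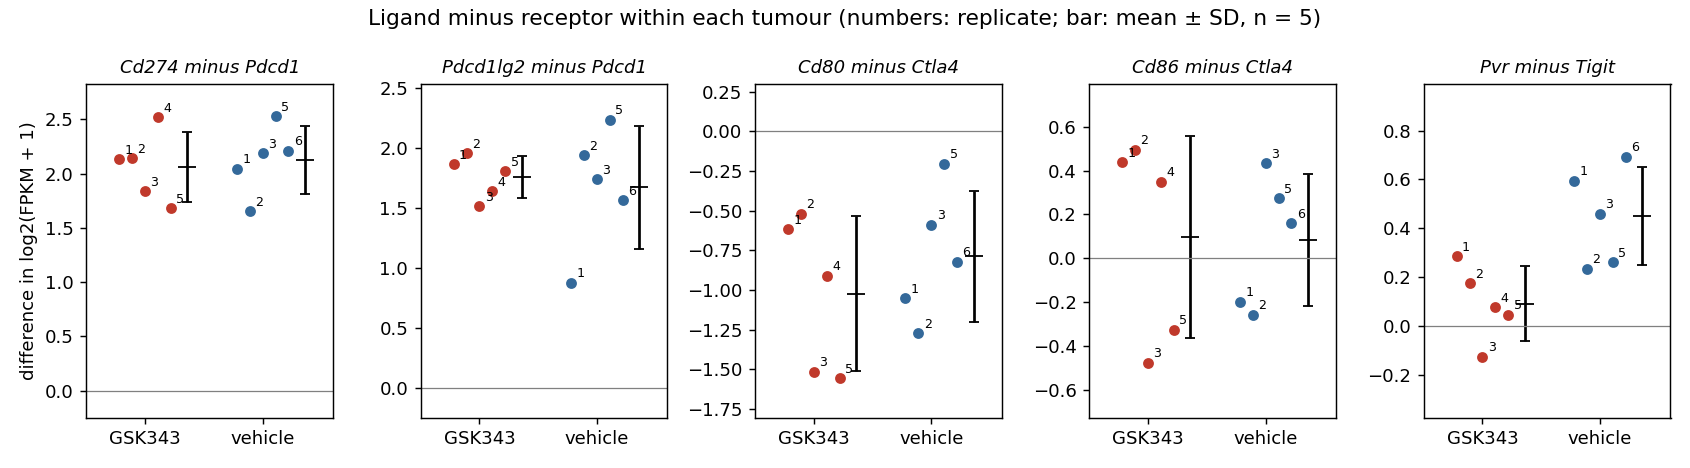
Ligand minus receptor in log2(FPKM + 1) (vertical axis) for 5 pairs in GSK343 (red) and vehicle (blue) tumours, with replicate numbers and the mean ± SD of 5 tumours. The groups overlap in every pair, and Pvr minus Tigit averages 0.09 with GSK343 and 0.45 with vehicle.

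The receptors were then set beside the T cells in the same tumour, through Cd3d, Cd3e and Cd3g, the CD3 chains that define T cells. The 3 genes summed to 43.0, 34.996, 101, 42.0 and 70.4 FPKM in GSK343 tumours, against 27.5, 68.8, 31.0, 18.1 and 23.4 FPKM in vehicle tumours. GSK343 replicates 3 and 5 and vehicle replicate 2 were thus the highest 3, as they were for Ctla4, Lag3 and Pdcd1lg2. None of the 3 CD3 genes passed the test, and Cd3g alone had an unadjusted limma p under 0.05, with log2 fold changes of 0.71 for Cd3d, 0.65 for Cd3e and 0.85 for Cd3g (limma adjusted p = 0.274 to 0.337). Over the 10 tumours, log2 levels of the receptors followed the mean log2 level of the CD3 genes. Pearson's r was 0.96 for Ctla4 (rho 0.96, permutation p = 1e-05, the smallest that 100000 resamples give), 0.94 for Havcr2 (rho 0.94, permutation p = 5e-05), 0.94 for Lag3 (rho 0.98, permutation p = 7e-05) and 0.93 for Pdcd1 (rho 0.90, permutation p = 0.00014). With the group means taken out, r remained 0.95 for Ctla4, 0.94 for Havcr2, 0.91 for Lag3 and 0.91 for Pdcd1. Without GSK343 replicate 3 and vehicle replicate 5, the tumours farthest from the median CD3 score, r was 0.84 to 0.95 for these 4 receptors. Tigit had an r of 0.74 (rho 0.79, permutation p = 0.0122) and a slope of 0.21 log2 units per log2 unit of the CD3 score, against slopes of 0.74 to 1.08 for the other receptors. Within the groups its r was 0.63 and did not pass (permutation p = 0.0919, adjusted 0.131). These values come from the same libraries as the CD3 genes and share their scaling.

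The receptors were also expressed as a percent of the CD3 sum of the same tumour. Pdcd1 stood at 13.01 ± 1.13% in GSK343 tumours and 15.6 ± 4.42% in vehicle tumours, and Lag3 at 32.9 ± 5.95% in GSK343 tumours and 32.7 ± 7.51% in vehicle tumours. Havcr2 stood at 8.14 ± 0.698% in GSK343 tumours and 7.05 ± 1.34% in vehicle tumours. Ctla4 was at 14.3 ± 2.34% in GSK343 tumours and 10.9 ± 1.501% in vehicle tumours. Tigit was the receptor furthest from proportion, at 26.4% to 62.4% in GSK343 tumours and 33.1% to 117% in vehicle tumours. Every one of these ranges overlapped, and no test was applied to them.

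**Figure D3:**
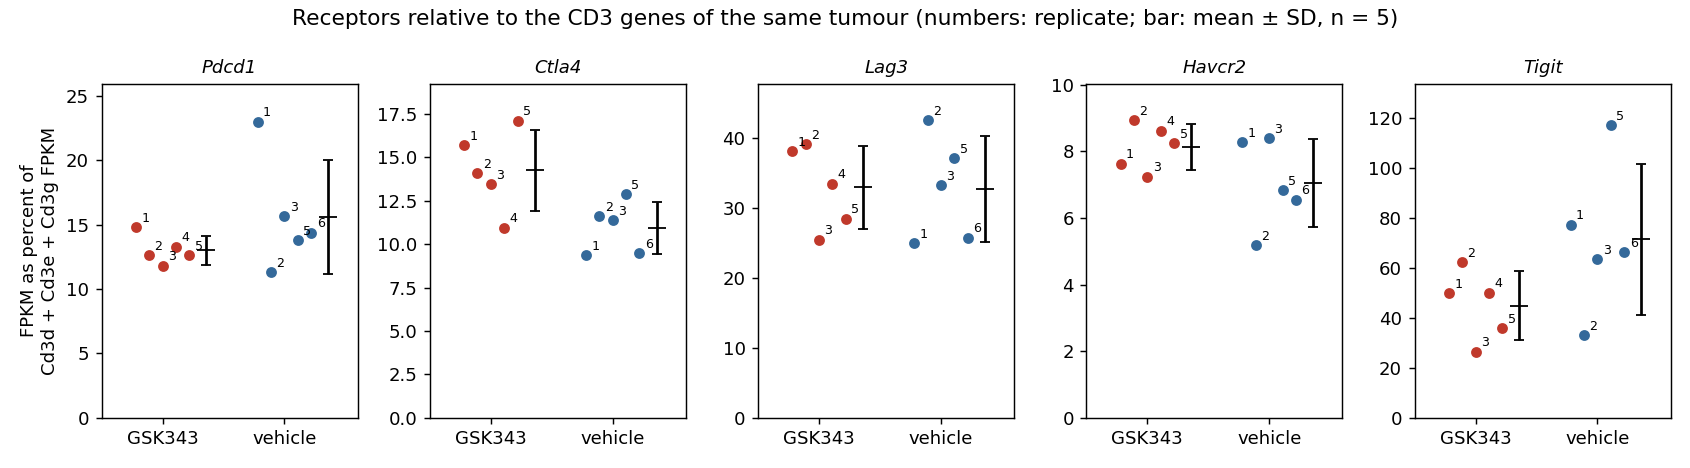
Each receptor's FPKM as a percent of the summed Cd3d, Cd3e and Cd3g FPKM of the same tumour (vertical axis), in GSK343 (red) and vehicle (blue) tumours, with replicate numbers and the mean ± SD of 5 tumours. Lag3 averages 32.9% with GSK343 and 32.7% with vehicle, and Tigit is spread most widely, up to 117% in vehicle replicate 5.

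Cd80, Cd86 and Pdcd1lg2, which antigen-presenting cells carry, were set beside the macrophage genes Adgre1, Csf1r, Mertk, Cd68, Fcgr1 and C1qa. These 6 genes summed to 367 to 580 FPKM in GSK343 tumours and 154 to 625 FPKM in vehicle tumours, and none of them was at 0 in any tumour. None passed the test, and all 6 were higher in GSK343 tumours at an unadjusted limma p under 0.05, as were 10.7% of all lines. Pearson's r with their mean log2 level was 0.97 for Cd86 (rho 0.90, permutation p = 0.00012), 0.93 for Pdcd1lg2 (rho 0.92, permutation p = 0.0002) and 0.92 for Cd80 (rho 0.87, permutation p = 0.00019). With group means taken out, r was 0.96 for Cd86, 0.89 for Pdcd1lg2 and 0.84 for Cd80, and without vehicle replicates 1 and 6 it was 0.93 for Cd86, 0.84 for Pdcd1lg2 and 0.77 for Cd80. Cd274 had an r of 0.55 with the macrophage score (rho 0.58, permutation p = 0.0992) and did not pass. Its r with the CD3 score was 0.77 (rho 0.75, permutation p = 0.00941), but 0.47 without GSK343 replicate 3 and vehicle replicate 5, the ends of the score's range, and it no longer passed without them. Leaving out any 1 tumour gave an r of 0.63 to 0.85, and it did not pass without GSK343 replicate 3 (r = 0.63) or with group means taken out (r = 0.65). Pvr, which followed neither score, had an r of -0.25 with the CD3 genes (rho -0.15, permutation p = 0.495) and -0.37 with the macrophage genes (rho -0.07, permutation p = 0.319). Of the 20 relations between the 10 genes and the 2 scores, 17 passed after Benjamini-Hochberg adjustment (adjusted permutation p = 0.0002 to 0.0408) and 10 passed with group means taken out. The share of all lines that would pass was not determined, so whether these counts are particular to the 10 genes was not tested. The receptors and ligands also followed each other's scores: Lag3 had an r of 0.91 with the macrophage genes and Pdcd1lg2 an r of 0.92 with the CD3 genes.

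**Figure D4:**
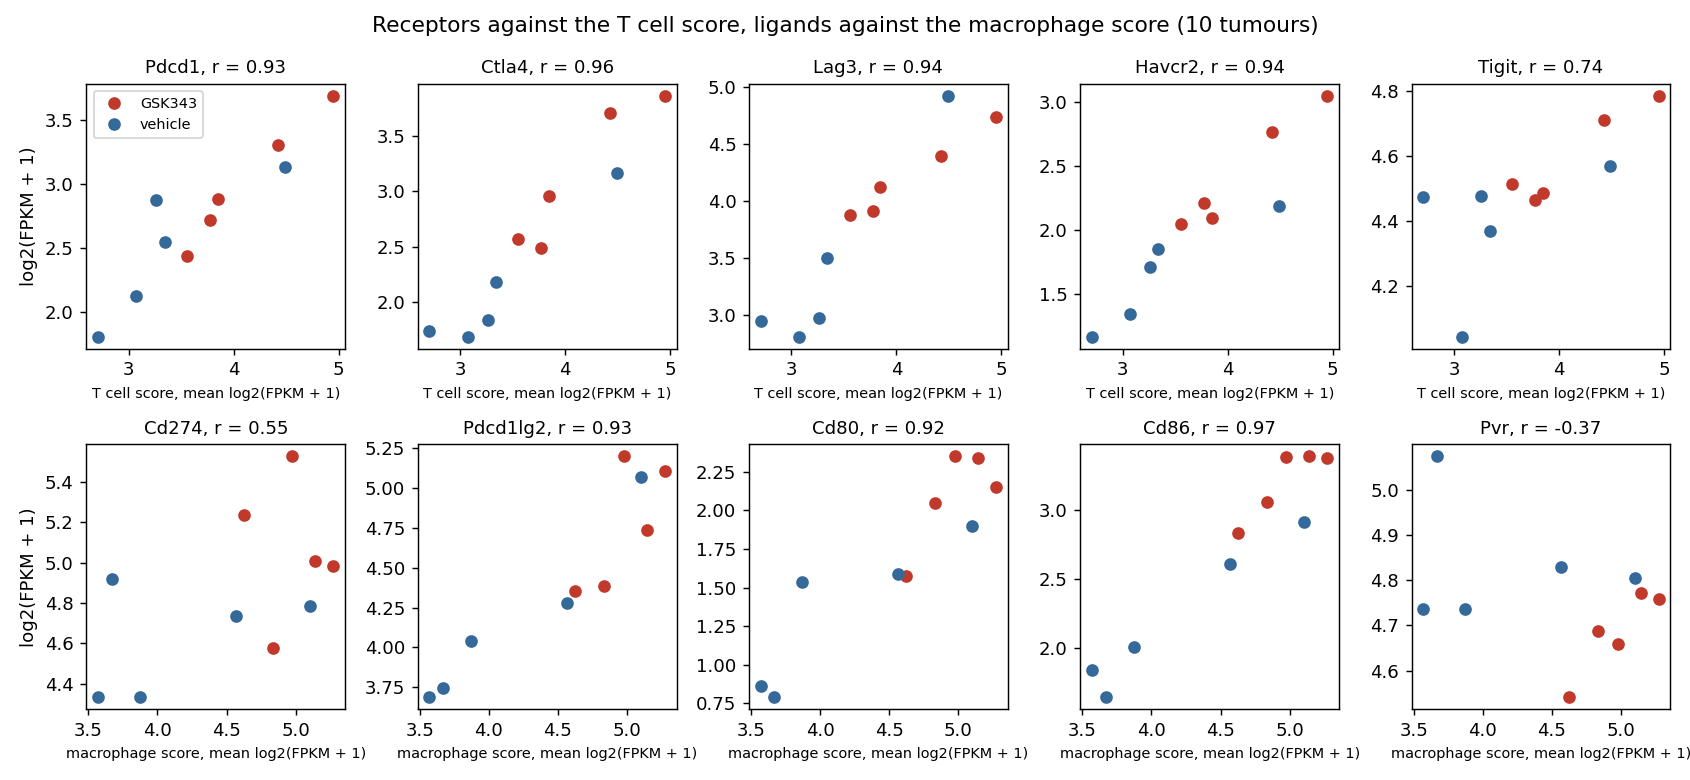
Log2(FPKM + 1) of each gene (vertical axes) against the mean log2(FPKM + 1) of Cd3d, Cd3e and Cd3g for receptors (top) or of 6 macrophage genes for ligands (bottom), 1 point per tumour, GSK343 in red and vehicle in blue. Ctla4 (r = 0.96) and Cd86 (r = 0.97) lie close to a line through both groups, while Cd274 (r = 0.55) and Pvr (r = -0.37) are scattered.

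With the CD3 score as a covariate, the log2 fold changes of GSK343 over vehicle were -0.05 for Pdcd1, 0.06 for Lag3, 0.29 for Ctla4, 0.30 for Havcr2, 0.07 for Tigit, 0.20 for Cd274, 0.09 for Pdcd1lg2, 0.50 for Cd80, 0.66 for Cd86 and -0.17 for Pvr. Cd86 and Havcr2 were the only genes of the 10 with an unadjusted limma p under 0.05 in that fit, which 7.49% of all lines reached. With the score of 5 pan-leukocyte genes as a covariate, only 5 of the 10 log2 fold changes were positive: 0.24 for Cd86, 0.21 for Cd274, 0.12 for Cd80, 0.10 for Havcr2 and 0.01 for Tigit. Those of Lag3 (-0.38, SE 0.28), Pdcd1lg2 (-0.31, SE 0.14), Pdcd1 (-0.22, SE 0.32) and Ctla4 (-0.17, SE 0.19) turned negative, and that of Pvr was -0.16. None of the 10 had an unadjusted limma p under 0.05 in that fit, while 5.09% of all lines did. Without a covariate, all 5 pan-leukocyte genes were higher in GSK343 tumours at an unadjusted limma p under 0.05, as were 10.7% of all lines. That score and the treatment are therefore not independent in these tumours. With the macrophage score as a covariate, chosen after the data were seen, Cd274 and Havcr2 stood at 0.33 and 0.35, Cd86 at 0.35, Cd80 at 0.20, Ctla4 at 0.19, Pdcd1 at 0.06, Tigit at 0.05, Pdcd1lg2 at -0.11, Pvr at -0.16 and Lag3 at -0.19. Cd86 alone had an unadjusted limma p under 0.05 there, where 4.82% of all lines did. None of the 10 passed after adjustment in any of these fits, where 0.0138% of all lines passed with the CD3 score, 0.0069% with the pan-leukocyte score and 0.0138% with the macrophage score. Leaving out GSK343 replicates 3 and 5, the libraries high in mitochondrial transcripts and in CD3 genes, gave log2 fold changes of 0.18 for Pdcd1, 0.55 for Ctla4, 0.54 for Lag3, 0.47 for Havcr2, 0.33 for Pdcd1lg2 and 0.89 for Cd86. Cd86 alone then had an unadjusted limma p under 0.05, where 6.51% of all lines did. The part of the T cell and macrophage genes, of the mitochondrial share and of the antibody in the differences was not tested.

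**Figure D5:**
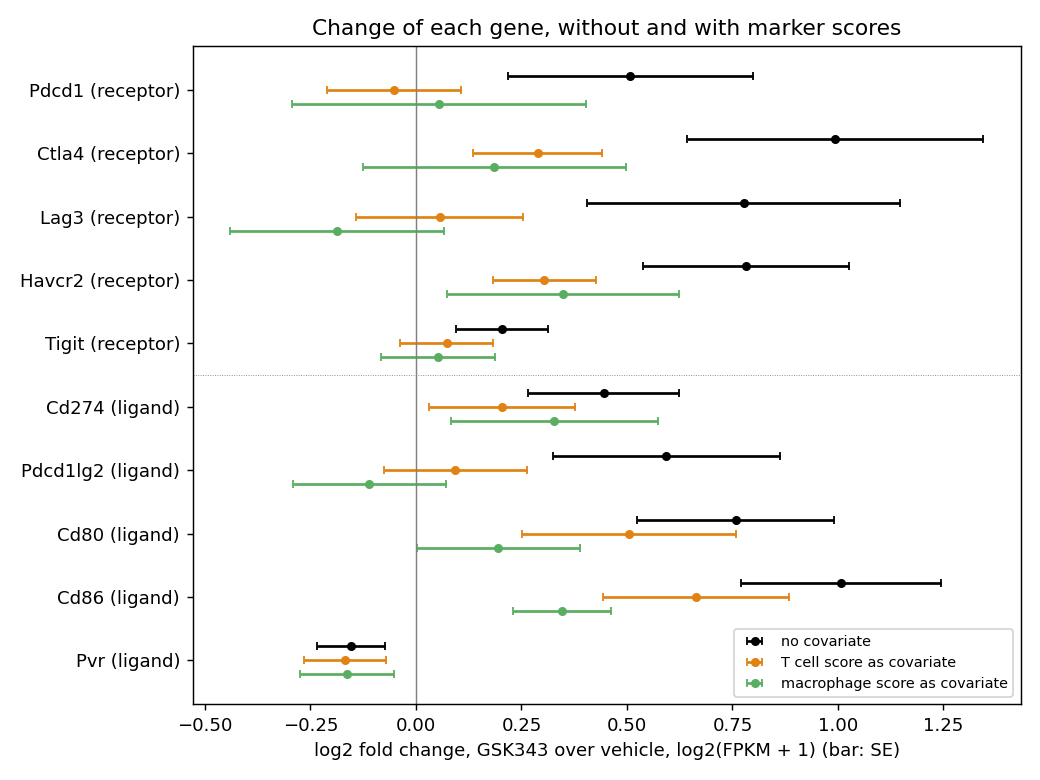
Log2 fold change of GSK343 over vehicle on log2(FPKM + 1) (horizontal axis) with its SE for the 10 genes, without a covariate (black), with the CD3 score (orange) and with the macrophage score (green). Cd86 is at 1.01, 0.66 and 0.35 in the 3 fits, Pvr stays between -0.17 and -0.15, and Pdcd1 is at 0.51 without a covariate and at -0.05 with the CD3 score.

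Each of the 10 genes was also set against the other tested lines for the genes whose log2 level was most alike over the 10 tumours. Predicted genes, pseudogenes and antigen receptor segments were left out, and the result is a description. For each gene the 3 highest r were picked from the remaining lines of the 14496 tested, over only 10 tumours. Picking in this way favours a high r. No test was applied and no background is given, so how far these values exceed chance was not tested. Pdcd1 was most like Prf1, which encodes perforin (r = 0.97), Cd8b1, a chain of the CD8 coreceptor (r = 0.97), and Gadd45b (r = 0.95). Ctla4 was most like Tbx21, which encodes the transcription factor T-bet (r = 0.99), Tnfrsf4, the costimulatory receptor OX40 (r = 0.99), and Skap1, an adaptor in T cells (r = 0.99). Havcr2 was most like Mark1 (r = 0.99), the inhibitory receptor gene Cd96 (r = 0.98) and the T cell receptor alpha constant gene Trac (r = 0.97). Lag3 was nearest to Ifi27 (r = 0.99), Tspyl2 (r = 0.98) and the NADPH oxidase subunit gene Cyba (r = 0.98), and Tigit to Agpat4 (r = 0.95), Acap1 (r = 0.94) and Ly6c1 (r = 0.94). The genes most like the receptors thus included several that T cells express.

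For the ligands, Cd274 was most like the interferon-induced antiviral gene Rsad2 (r = 0.94), Tox4 (r = 0.94) and Tnfrsf9, the costimulatory receptor 4-1BB (r = 0.93). Pdcd1lg2 was most like Cd48 (r = 0.99), which encodes a leukocyte adhesion protein, Plcl2 (r = 0.98) and GRp18 (r = 0.98). Cd80 was nearest to Slc11a1, a metal transporter of phagocytes (r = 0.97), Cmklr1, the chemerin receptor (r = 0.96), and Thy1 (r = 0.96). Cd86 was nearest to Arhgap30, Birc3 and Ptpn7, each with r = 0.99. Pvr was most like Rbbp8, a DNA repair gene (r = 0.93), Vegfa, the angiogenic growth factor (r = 0.91), and Ppme1 (r = 0.89). These 3 values were lower than any given here for the other genes of the set. A link between Pvr and any of the 3 genes, Vegfa included, was not tested. Vegfa averaged 46.4 FPKM with GSK343 and 53.0 FPKM with vehicle.

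Of 10 further inhibitory receptors of lymphocytes and myeloid cells, 7 passed the filter, all 7 had a positive log2 fold change and none was called by limma, with a median of 0.78 and 6 higher at an unadjusted p under 0.05, beside 10.7% of all lines. The smallest p belonged to Lair1, a collagen receptor, at 11.4 ± 2.88 FPKM with GSK343 and 4.68 ± 2.64 FPKM with vehicle (limma adjusted p = 0.191). It was followed by Cd96, which like Tigit binds Pvr, at 2.35 ± 0.999 FPKM with GSK343 and 0.955 ± 0.612 FPKM with vehicle, and by Klrc1, an inhibitory receptor of natural killer and CD8 T cells, at 8.42 ± 4.27 FPKM with GSK343 and 3.77 ± 1.51 FPKM with vehicle. Of 9 costimulatory receptors 8 passed the filter, all 8 had a positive log2 fold change and none was called, with a median of 0.66 and 3 higher at that unadjusted level. Over all lines, 47.6% had a log2 fold change above 0, 0.0828% were called and the median was -0.01. Tnfrsf4 averaged 7.999 ± 2.75 FPKM with GSK343 and 3.79 ± 2.05 FPKM with vehicle, and Tnfrsf18, which encodes GITR, 7.86 ± 2.25 FPKM with GSK343 and 4.49 ± 1.42 FPKM with vehicle (limma adjusted p = 0.192 for either). Tnfrsf9 averaged 15.2 ± 4.72 FPKM with GSK343 and 9.35 ± 2.44 FPKM with vehicle.

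Other ligands and partners of this receptor class gave the one call. Of 17 such genes 14 passed the filter, 8 had a positive log2 fold change, the median was 0.04 and 4 were higher at an unadjusted limma p under 0.05, beside 10.7% of all lines; 0.0828% of all lines were called. Tnfrsf14, the partner of the inhibitory receptor Btla, rose to 7.18 ± 1.34 FPKM in GSK343 tumours, against 1.997 ± 0.708 FPKM in vehicle tumours, with no overlap (log2 fold change 1.47, limma adjusted p = 0.0226). The call was lost without any one of GSK343 replicates 2, 3, 4 and 5 and vehicle replicates 5 and 6, and in 15 of 28 alternatives in all, with a log2 fold change of 1.15 to 1.86 and an adjusted p of 0.0092 to 0.542 over them. Btla itself was under the filter, at 0.677 ± 0.212 FPKM with GSK343 and 0.478 ± 0.142 FPKM with vehicle. Lgals9, which encodes galectin-9, a described ligand of TIM-3, averaged 90.5 ± 5.70 FPKM with GSK343 and 76.3 ± 11.0 FPKM with vehicle (limma adjusted p = 0.242). Fgl1, a described ligand of Lag3 that hepatocytes secrete, averaged 54.5 ± 10.4 FPKM with GSK343 and 63.7 ± 13.4 FPKM with vehicle (limma adjusted p = 0.506). Icosl, the ligand of the costimulatory receptor Icos, averaged 3.17 ± 0.548 FPKM with GSK343 and 2.08 ± 0.896 FPKM with vehicle.

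A list of signalling genes, which includes Lck, Zap70, Lat and Cd247 of T cell receptor signalling, gave no call. All 10 passed the filter, 9 had a positive log2 fold change and the median was 0.48. Of the 10, 2 were higher at an unadjusted limma p under 0.05, beside 10.7% of all lines. Ptpn6, which encodes the phosphatase SHP-1, averaged 40.7 ± 3.11 FPKM with GSK343 and 30.8 ± 6.73 FPKM with vehicle (limma adjusted p = 0.203). Inpp5d, which encodes the lipid phosphatase SHIP-1, averaged 7.66 ± 1.78 FPKM with GSK343 and 4.76 ± 1.86 FPKM with vehicle, and Zap70, the kinase that binds the CD3 chains, 7.03 ± 2.68 FPKM with GSK343 and 4.48 ± 2.29 FPKM with vehicle. Of 12 transcription factors linked to T cell exhaustion, 9 passed the filter, 6 had a positive log2 fold change and none was called, with a median of 0.29 and 4 higher at that unadjusted level. The smallest p-values there were those of Nr4a2 at 1.38 ± 0.244 FPKM with GSK343 and 0.941 ± 0.181 FPKM with vehicle, Tbx21 at 1.79 ± 0.723 FPKM with GSK343 and 0.877 ± 0.559 FPKM with vehicle, and Irf4 at 1.44 ± 0.675 FPKM with GSK343 and 0.634 ± 0.465 FPKM with vehicle. Tox, a factor that exhausted T cells need, averaged 3.84 ± 0.3004 FPKM with GSK343 and 4.18 ± 0.944 FPKM with vehicle. It was named for that role after its values were seen. Vehicle replicate 2, highest of its group in CD3 genes, had 3.45 FPKM of Tox, and vehicle replicate 1 had 5.77 FPKM. Which cells carried Tox was not tested.

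All 15 genes of a list linked to the induction or stability of PD-L1 passed the filter. Of these, 11 had a positive log2 fold change, where 47.6% of all lines did, and none was called by limma. The median was 0.20, and 6 were higher at an unadjusted limma p under 0.05, beside 10.7% of all lines. Stat2 averaged 16.8 ± 6.54 FPKM with GSK343 and 7.83 ± 3.37 FPKM with vehicle (limma adjusted p = 0.191). Ifng, which encodes interferon-gamma, averaged 9.83 ± 6.77 FPKM with GSK343 and 3.36 ± 2.62 FPKM with vehicle (limma adjusted p = 0.210), and its groups overlapped. Irf1, which acts directly on the Cd274 promoter and was named after its values were seen, averaged 138 ± 53.8 FPKM with GSK343 and 152 ± 56.9 FPKM with vehicle.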

How the data were processed

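Poly-A RNA of 10 tumours was sequenced on an Illumina HiSeq instrument, per the series' design text. The submitters' processing notes name HISAT2 2.1.0, StringTie 1.3.3b, Trimmomatic 0.33 and genome build mm10, without a role for each; options and annotation are not stated in the sources used here. The deposited table has no unit in its header, and its values were read as FPKM from the values themselves and the authors' tools. Whole reads could not be recovered, so no count test was run and no counting interval is given. From these values, log2(FPKM + 1) was tested two-sided in R 4.3.3 with limma 3.58.1, using its intensity trend, over all 14496 lines whose mean reached 1 FPKM. Fold changes on that scale understate changes of low genes. Pairs were tested by exact permutation and correlations by 100000 permutations (scipy 1.17.1). The limma step was tested on simulated data, with independent noise for each gene and 200 changes planted among the higher genes. It recovered 86% of 2-fold and 96% of 4-fold changes, and 6.19% of its calls were false. Genes in these tumours vary together, so those shares need not hold here. GENCODE M21 gave overlaps between genes, and RefSeq the promoter windows. Named genes were the 10 receptors and ligands, the 3 genes with the smallest p in each pathway list, the T cell, macrophage and hepatoma markers, and for each of the 10 the 3 most alike lines, without predicted genes, pseudogenes and antigen receptor segments. Btla and Fgl1, named as partners, and a few others so marked were chosen after their values were seen. The genes and lists were chosen with earlier results of these data known. Alternatives changed the filter, pseudocount, scaling, weights, covariates and tumours used. A gene that the naming rule selects and a motif that was searched are not reported here.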

Additional observations from a re-analysis of the deposited data

Results flagged for a closer look

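In 32 groups of 5 tumours examined, 4 had a tumour far from the rest by Dixon's criterion, where chance gives about 1 in 20 groups. In vehicle replicate 2, Ctla4 was at 8.001 FPKM, against 2.22 to 3.53 FPKM in the other vehicle tumours, and Lag3 was at 29.3 FPKM, against 6.02 to 10.3 FPKM. The summed Cd3d, Cd3e and Cd3g level of the same tumour was 68.8 FPKM, against 18.1 to 31.0 FPKM in the other 4. In vehicle replicate 1, Pvr was at 32.7 FPKM, against 25.7 to 27.4 FPKM in the others. The groups examined share tumours, so these are not independent.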

How the results depend on the processing

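No count of the 10 genes called differed from 0, except leaving out 1 tumour, which gave 0 to 2, the higher value without vehicle replicate 2. Lines called over the whole table numbered 12 and moved to 3 with a mean of at least 5 FPKM, 6 with no filter, 7 with median-of-ratios scaling, 7 with quantile normalization, 33 at an adjusted p under 0.1, 1 with the pan-leukocyte covariate, 2 with the T cell covariate, and 4 without GSK343 replicates 3 and 5. Chosen after seeing the data were 2 with the macrophage covariate, 2 with the pan-leukocyte covariate without Ptprc, and 7 without GSK343 replicates 3 and 5 and vehicle replicate 2. Leaving out 1 tumour gave 3 to 96. Replicate numbers shared by the groups did not pair the tumours (correlations of deviations -0.33 to 0.03, 0 of 4 best with their own number): with the replicate block over 8 tumours 2 lines were called and without it 5. Log2 fold changes reversed with the pan-leukocyte covariate for Pdcd1lg2 (-0.31), Ctla4 (-0.17), Pdcd1 (-0.22) and Lag3 (-0.38), without Ptprc in it likewise (-0.20, -0.018, -0.12 and -0.30), with the T cell covariate for Pdcd1 (-0.051), and with the macrophage covariate for Pdcd1lg2 (-0.11) and Lag3 (-0.19). Of the pairs, Cd274 minus Pdcd1 (0.14) and Cd80 minus Ctla4 (0.10) reversed without GSK343 replicates 3 and 5. Leaving out 1 tumour gave -0.18 to 0.038 for Cd274 minus Pdcd1, -0.11 to 0.23 for Pdcd1lg2 minus Pdcd1 and -0.086 to 0.16 for Cd86 minus Ctla4. Relations passing were 17, or 10 on deviations from group means and 13 to 17 leaving out 1 tumour. Pvr reversed against the T cell score within groups (0.10) and against the macrophage score within groups (0.052), without its 2 farthest tumours (0.14) and leaving out 1 tumour (-0.48 to 0.060). The cause was not tested. Of the other values under alternatives, 288 fold changes and 60 pair differences kept their direction and side of the threshold, 27 correlations no longer passed while the remaining ones did not change side, and Tnfrsf14 no longer passed in 15. Depth per tumour is known only by inference, and what it limits was not tested.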

Other observations

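Ligands were also set beside leukocyte genes. Ptprc, which encodes CD45, averaged 19.0 ± 11.6 FPKM in GSK343 tumours and 3.79 ± 2.28 FPKM in vehicle tumours, a log2 fold change of 1.93, while the other pan-leukocyte genes Coro1a, Laptm5, Cd53 and Cd52 stood at 0.65 to 1.02. Relative to Ptprc, all 5 ligands had a lower mean in GSK343 tumours. Cd86 stood at 61.6 ± 36.7% of Ptprc with GSK343 and 110.3 ± 25.5% with vehicle, Cd80 at 23.6 ± 12.8% with GSK343 and 47.2 ± 21.3% with vehicle, and Cd274 at 268 ± 227% with GSK343 and 822 ± 511% with vehicle. Pdcd1lg2 stood at 189 ± 106% with GSK343 and 546 ± 190.4% with vehicle, and Pvr at 199 ± 146% with GSK343 and 973 ± 586% with vehicle. The sum of Coro1a, Laptm5 and Cd53 was taken as another denominator after seeing the data, and the direction for Cd86 and Cd80 turned with it. Cd80 stood at 1.45 ± 0.310% of that sum with GSK343 and 1.14 ± 0.431% with vehicle. Cd86 stood at 3.66 ± 0.444% of that sum with GSK343 and 2.68 ± 0.443% with vehicle, and Pdcd1lg2 at 11.5 ± 0.749% with GSK343 and 12.7 ± 1.27% with vehicle. Cd274 stood at 14.7 ± 3.76% with GSK343 and 18.5 ± 6.51% with vehicle, and Pvr at 11.1 ± 2.12% with GSK343 and 21.9 ± 8.0% with vehicle. The groups overlapped for each of these, and no test was applied.

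Cd80 and Cd86 followed each other over the 10 tumours with an r of 0.95, and Pdcd1lg2 followed Cd86 with an r of 0.90. Cd274 and Pdcd1lg2, neighbours on chromosome 19, had an r of 0.62. Foxp3, which marks regulatory T cells that carry Ctla4, was under the filter. It had 0.379 to 1.596 FPKM in GSK343 tumours and 0.0969 to 0.324 FPKM in vehicle tumours, with no overlap. Of the lines tested, 1.42% were higher in GSK343 tumours in that way, but Foxp3 is not among them and that share is not its background. Of the same marker list, Il2ra passed the filter and did not overlap, at 0.919 to 3.02 FPKM with GSK343 and 0.284 to 0.887 FPKM with vehicle. It was not called (limma adjusted p = 0.191). Ikzf2, under the filter, overlapped, at 0.527 to 0.996 FPKM with GSK343 and 0.393 to 0.878 FPKM with vehicle. The number of regulatory T cells was not tested. Ptprc, the other pan-leukocyte genes, Foxp3, Il2ra and Ikzf2 were named after their values were seen.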
